A study of Mus musculus with 6 samples.

Results

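Neuregulin 1 and the surface receptors that promote myelination in Schwann cells, the glia of peripheral nerves, were measured here in mouse sciatic nerves on postnatal day 2. The set was fixed by gene name and not by measured values, but was chosen with earlier results of these data known. It holds the ligand gene Nrg1, the ErbB family receptor genes Erbb2, Erbb3, Erbb4 and Egfr, the G protein-coupled receptor genes Adgrg6 and Lpar1, and the laminin receptor gene Dag1. These are 8 of the 18194 genes named on the arrays and 21 of the 45101 probe sets. A probe set is the group of short probes that reads 1 transcript, and a gene with several was read from the one with the highest mean over the 6 arrays. The double knockout (dKO) nerves had the genotype DhhCre+ HDAC1-2 dKO, in which Hdac1 and Hdac2, the genes of a pair of class I histone deacetylases, are deleted by a Cre recombinase driven from the desert hedgehog (Dhh) gene, and they carry the disease label peripheral hypomyelination. Dhh is active in the Schwann cell lineage, from which endoneurial fibroblasts can also descend. The control nerves had the genotype DhhCre–. Both groups were of mixed strain, had the perineurium removed, and had 3 samples each, all hybridised to Affymetrix Mouse Genome 430 2.0 arrays. The labels do not say how many nerves went into a sample or whether control pups carried the targeted alleles.

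Axons carry neuregulin 1 on their surface, and Schwann cells read it through a receptor made of ErbB2 and ErbB3. ErbB3 binds the ligand but has almost no kinase activity of its own, whereas ErbB2 has an active kinase and no known ligand, so the pair works as a unit. The adhesion receptor ADGRG6 (also called GPR126) raises cyclic AMP and is required for Schwann cells to begin myelination, and dystroglycan, the product of Dag1, links laminin of the basal lamina to the cytoskeleton.

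Values are log2 expression, with n = 3 arrays per group, errors as SD for groups and SE for changes, and every change is dKO minus control. A gene was tested if its value reached 4 on 3 or more arrays, and it is said to have risen or fallen where limma's adjusted p was under 0.05. The number of arrays limits the precision. The labels do not say whether the probes for the targeted genes lie in the deleted exons. Hdac1 lay between 8.75 and 8.96 on the dKO arrays, against 10.36 to 10.48 on the control arrays, and Hdac2 between 10.81 and 11.22, against 12.33 to 12.34. All 9 tested pan-Schwann marker genes were above this low-value limit on every array, and Sox10 lay between 9.92 and 10.66 in dKO and between 10.18 and 10.99 in control nerves. The array dKO 3 stood apart in the macrophage list, with a list mean of 8.90 against 7.89 and 8.05 on dKO 1 and dKO 2, and 7.69 to 7.78 in control nerves. A change that moves by more than 1.5 times without dKO 3 is also given without it. The RNA came from whole nerves, so fewer cells of a type and less RNA per cell cannot be told apart.

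Erbb3, Lpar1 and Dag1 fell in dKO nerves and Egfr rose, while Erbb2 and Adgrg6 did not pass the test. Nrg1 and Erbb4 were under the low-value limit on all 6 arrays and were not tested. Thus 4 of 6 tested genes were called, 1 higher and 3 lower, where 22.0% of all 14550 tested genes were called (12.6% higher and 9.38% lower). The groups did not overlap for 4 of the 6, where 40.9% of all tested genes had groups that did not overlap. Of the 19 probe sets above the limit, 2 were called higher and 8 lower in the fit over all 33975 such probe sets, in which 15.8% were called (8.42% higher and 7.40% lower). The 19 include several probe sets of the same gene and are not independent.

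**Figure D1:**
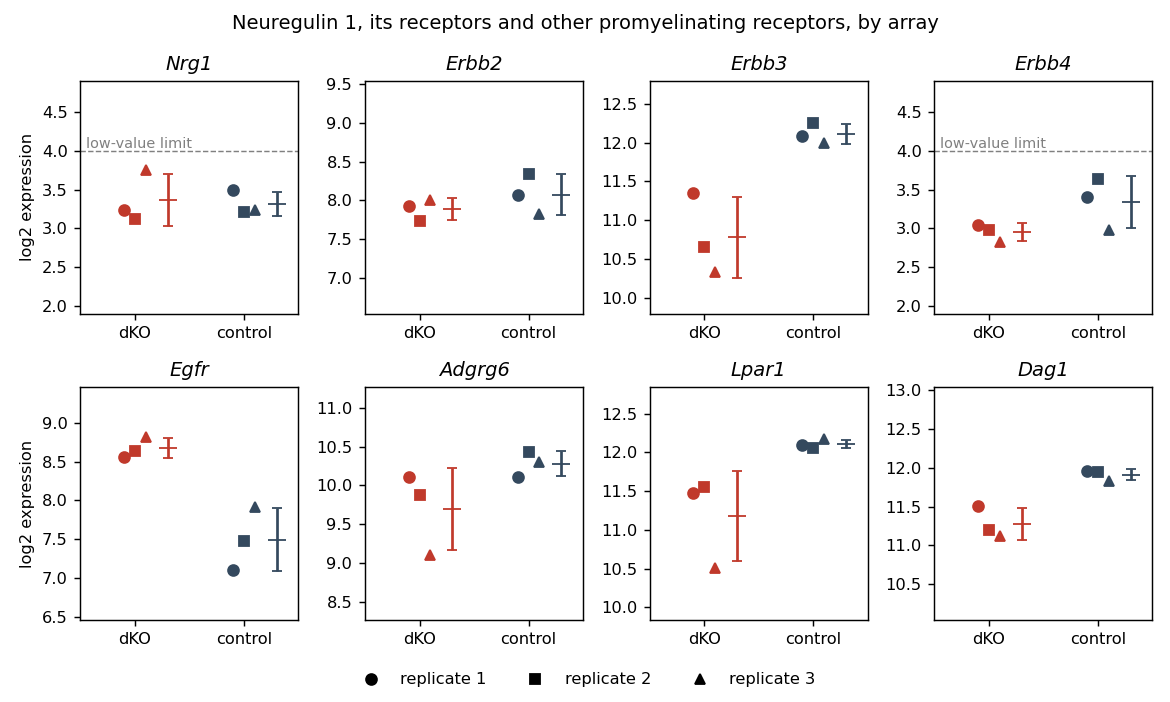
Log2 expression of the 8 genes on each array (points, shaped by replicate number), with dKO left of control and mean ± SD beside the points (n = 3 per group). Each panel spans the same number of log2 units, the dashed line marks the low-value limit of 4, and Erbb3, Egfr, Lpar1 and Dag1 show groups that do not overlap.

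The promoters of Dag1, Lpar1 and Egfr are shown because these called genes moved in both directions. For Erbb3, the remaining called gene, no promoter window was available. Each is the 250 bases before the outermost start in RefSeq (build GRCm38.p6), read 5′ to 3′ on the gene's strand, with motif matches on either strand in capitals.
Dag1, chr9:108263959-108264208, minus strand: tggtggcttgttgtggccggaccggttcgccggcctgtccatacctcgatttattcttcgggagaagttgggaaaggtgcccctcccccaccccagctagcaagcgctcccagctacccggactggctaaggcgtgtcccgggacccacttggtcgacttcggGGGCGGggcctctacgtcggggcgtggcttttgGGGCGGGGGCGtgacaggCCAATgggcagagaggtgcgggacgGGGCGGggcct
Lpar1, chr4:58553492-58553741, minus strand: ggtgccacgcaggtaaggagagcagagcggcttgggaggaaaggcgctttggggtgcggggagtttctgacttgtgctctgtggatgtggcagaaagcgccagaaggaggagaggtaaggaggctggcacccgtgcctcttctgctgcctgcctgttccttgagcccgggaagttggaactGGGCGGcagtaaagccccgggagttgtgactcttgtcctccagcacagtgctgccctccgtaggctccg
Egfr, chr11:16751953-16752202, plus strand: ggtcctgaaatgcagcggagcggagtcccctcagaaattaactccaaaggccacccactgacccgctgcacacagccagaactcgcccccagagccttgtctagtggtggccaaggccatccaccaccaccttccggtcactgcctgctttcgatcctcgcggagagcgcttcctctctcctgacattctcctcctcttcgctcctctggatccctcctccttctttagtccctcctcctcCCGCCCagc
The motifs searched on both strands were the GC box (GGGCGG), the CCAAT box, the TATA box (TATAAA), the SOX-type hexamers, one written ACAAAG and the other written ACAATG, and the EGR-type motif, which is GCGNGGGCG. The Dag1 window held 3 GC boxes, 1 CCAAT and 1 EGR-type match that overlaps a GC box, and the Lpar1 and Egfr windows held 1 GC box each. None of the 3 windows held the TATA box or either SOX-type hexamer. Among all 32851 promoter windows of this length, 32.7% held the GC box, 33.8% the CCAAT box, 12.4% the TATA box, 16.5% the first SOX-type hexamer, 10.7% the other and 4.70% the EGR-type motif. The GC content was 67.6% for Dag1, 62.0% for Lpar1 and 60.8% for Egfr, and the median of all windows was 52.4%. A match describes the letters and does not show that a factor binds there.

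Nrg1, which encodes the axonal growth signal, was read by 1 probe set. It had log2 values of 3.24, 3.12 and 3.75 on the dKO arrays and 3.49, 3.21 and 3.24 on the control arrays. All 6 values lie under the limit and the groups overlap, so neither a level nor a difference can be read. Erbb4, which encodes a further neuregulin receptor, had 3.04, 2.98 and 2.82 in dKO and 3.41, 3.64 and 2.98 in control nerves, also all under the limit.

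Erbb2, the kinase partner of the receptor pair, had log2 values of 7.93, 7.74 and 8.01 in dKO nerves and 8.07, 8.34 and 7.82 in control nerves. The groups overlapped. Its change was -0.18 (SE 0.17, 95% interval -0.58 to 0.21, adjusted p = 0.497), an interval that holds no change as well as falls of up to 0.58. Erbb3, the ligand-binding partner, had 11.35, 10.66 and 10.33 in dKO nerves and 12.08, 12.26 and 12.00 in control nerves. Every dKO array lay below every control array, and dKO 1 lay nearest to control. Erbb3 averaged 10.78 ± 0.52 in dKO and 12.11 ± 0.13 in control nerves, a change of -1.33 (SE 0.25, adjusted p = 0.00684) that left 39.7% of the control level. Counting from the most negative change, it ranked 361 of the 14550 tested genes. The second, dimmer Erbb3 probe set had 8.04, 7.75 and 7.46 in dKO nerves, against 9.76, 9.47 and 9.53 in control nerves. That probe set fell by 1.84 (SE 0.19, adjusted p = 0.000932 over probe sets). Both probe sets thus fell, and the mean of both changed by -1.58.

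Egfr, which encodes the epidermal growth factor receptor and is not part of the neuregulin receptor pair, had log2 values of 8.56, 8.64 and 8.82 in dKO nerves. In control nerves it had 7.10, 7.47 and 7.91. The dKO arrays lay close together and above all control arrays, while the control arrays were spread over a wider range. Egfr averaged 8.68 ± 0.13 in dKO and 7.49 ± 0.41 in control nerves, a change of 1.18 (SE 0.21, adjusted p = 0.00572), or 2.27-fold. Its 7 probe sets did not move alike. The second brightest had 7.71, 7.50 and 8.47 in dKO and 6.11, 7.05 and 7.01 in control nerves, and rose by 1.17 (adjusted p = 0.0477 over probe sets). The other 5 did not pass, with changes of -0.43 to 0.69. The lowest of these was a dim probe set that lay under the limit on all 3 dKO arrays (adjusted p = 0.0687). With all 7 averaged the change was 0.49 (adjusted p = 0.0391). The array data do not tell which transcripts each probe set reads.

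**Figure D2:**
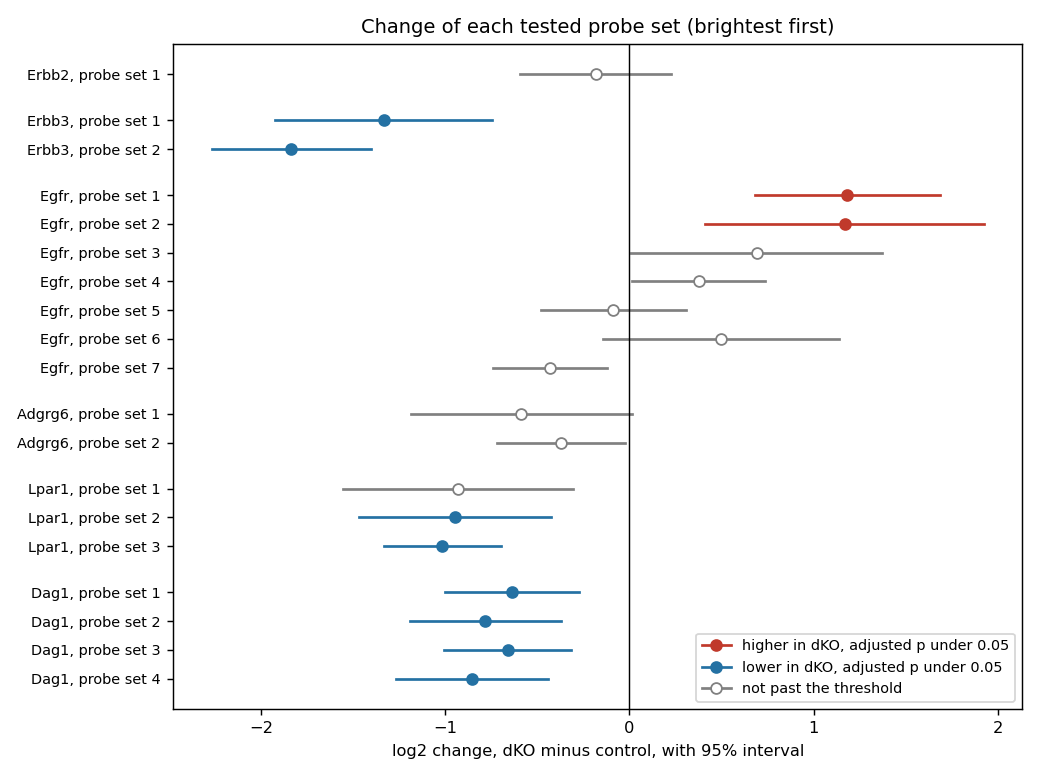
Log2 change (dKO minus control, points) with its 95% interval (lines) for the 19 probe sets above the low-value limit, ordered within each gene from brightest to dimmest. Both Erbb3 probe sets and all 4 Dag1 probe sets are called lower, whereas 2 of 7 Egfr probe sets are called higher.

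Adgrg6 had log2 values of 10.11, 9.87 and 9.10 in dKO nerves and 10.11, 10.43 and 10.30 in control nerves. The lowest control array and the highest dKO array had the same value to 2 decimals, and dKO 3 was lowest. The change was -0.59 (SE 0.25, 95% interval -1.17 to -0.003, adjusted p = 0.144), and it was -0.29 without dKO 3. The other probe set had 9.02, 8.79 and 8.90 in dKO and 9.10, 9.39 and 9.32 in control nerves, groups that did not overlap. Its change was -0.37 (adjusted p = 0.145 over probe sets). A lower level in dKO of more than 1.17 log2 units lies outside the interval of the brighter probe set.

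Lpar1, which encodes a receptor for lysophosphatidic acid, a signalling lipid, had log2 values of 11.47, 11.55 and 10.51 in dKO nerves and 12.09, 12.06 and 12.17 in control nerves. The control arrays lay close together and the dKO arrays below them, with dKO 3 well under the other two. Lpar1 averaged 11.18 ± 0.58 in dKO and 12.11 ± 0.06 in control nerves, a change of -0.93 (SE 0.27, adjusted p = 0.0388) that left 52.5% of the control level. Without dKO 3 the change was -0.60 (adjusted p = 0.0203). The call was not kept when any 1 control array was left out, with adjusted p = 0.0894 without control 1, 0.0891 without control 2 and 0.0919 without control 3. The changes were then -0.94, -0.95 and -0.90. The other 2 probe sets changed by -0.95 and -1.02 (adjusted p = 0.0269 and 0.00265 over probe sets), and the dimmest of the 3 had 8.06, 7.92 and 7.95 in dKO against 9.08, 8.98 and 8.91 in control nerves. On that probe set dKO 3 did not stand apart. The brightest probe set itself had an adjusted p of 0.0535 in the fit over probe sets, which adjusts over more tests.

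Dag1 had log2 values of 11.51, 11.20 and 11.12 in dKO nerves and 11.96, 11.95 and 11.83 in control nerves. The groups did not overlap, and the gap between the nearest arrays was smaller than for Erbb3. Dag1 averaged 11.28 ± 0.21 in dKO and 11.91 ± 0.07 in control nerves, a change of -0.64 (SE 0.15, adjusted p = 0.0194) that left 64.3% of the control level. All 4 of its probe sets fell, by 0.64 to 0.85 (adjusted p = 0.0160 to 0.0303 over probe sets), of which 2 are of the x type that can also bind related transcripts. With dKO 2 left out the change was -0.60 and no longer passed (adjusted p = 0.0703). The same held with control 1 left out (-0.61, adjusted p = 0.0556) and with control 2 left out (-0.62, adjusted p = 0.0676).

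**Figure D3:**
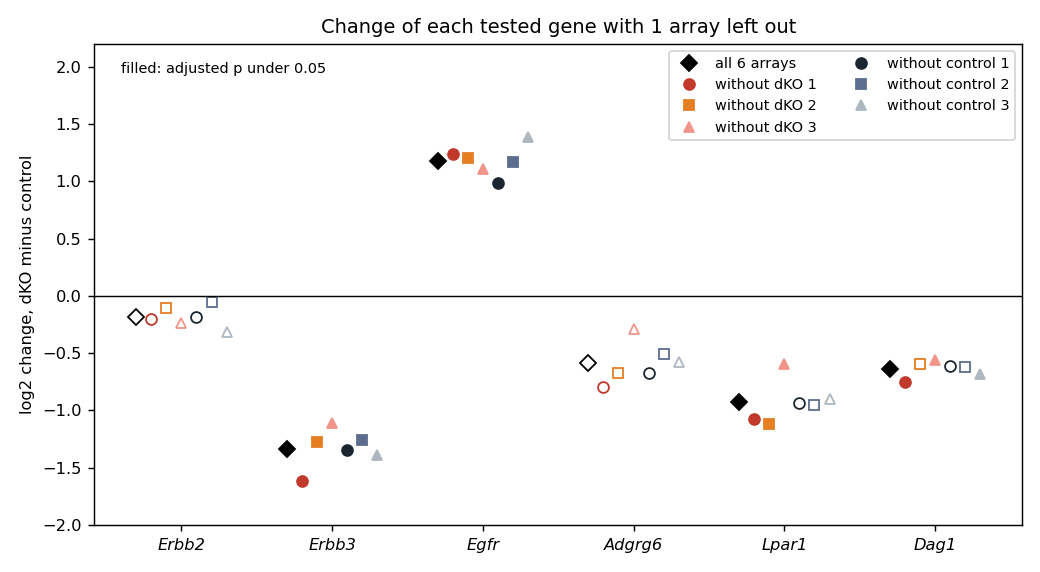
Log2 change (dKO minus control) of the 6 tested genes with all arrays (black diamonds) and with each array left out in turn (other symbols), where filled symbols have an adjusted p under 0.05. Erbb3 and Egfr stay called throughout, Lpar1 and Dag1 each lose the call without 3 of the arrays, and Erbb2 and Adgrg6 are never called.

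Whether the genes changed unequally was tested on the difference of their log2 values within each array, for 4 pairs of these genes. The change of Erbb3 lay 1.15 log2 units below that of Erbb2 (difference of changes -1.15, SE 0.33). It lay 2.52 below that of Egfr, which rose (-2.52, SE 0.46). The change of Dag1 was less negative than that of Erbb3 by 0.70 (SE 0.19), and that of Adgrg6 less negative than that of Lpar1 by 0.34 (SE 0.14). By an exact permutation test, two-sided, p was 0.1 for the 3 pairs with Erbb3, the smallest that 3 against 3 arrays allow, and 0.2 for Adgrg6 against Lpar1. Adjusted over the 4 pairs these are 0.133 and 0.2, so no pair could pass 0.05 by this test.

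The genes whose profile was nearest to each called gene were found by the root mean square difference over the 6 arrays after each gene was centred on its own mean. For Erbb3 these were Atp6v1g2, Cpeb2 and Secisbp2l, at 0.10, 0.11 and 0.11 log2 units. Secisbp2l had 12.20, 11.46 and 11.24 in dKO and 13.14, 13.08 and 13.07 in control nerves. For Egfr they were Aff3, Naalad2 and Bgn, at 0.07, 0.08 and 0.08. Bgn, which encodes the matrix proteoglycan biglycan, had 10.72, 10.99 and 10.98 in dKO and 9.40, 9.66 and 10.24 in control nerves, with control 3 highest and control 1 lowest among the controls, as for Egfr. For Lpar1 they were Ptpn21, 4933431E20Rik and Synj2bp, at 0.10 to 0.11, and for Dag1 Ankrd28, Usp32 and 0610030E20Rik, at 0.04 to 0.06. With 6 arrays in 2 groups, many genes have near profiles. These genes were picked for near profiles, so a shared order of the arrays follows from the choice.

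Marker genes of other nerve cells moved between the same groups. Of 10 fibroblast markers, all tested, 7 rose and 0 fell, with a median change of 0.82. The largest rises were those of Dpt (3.36, adjusted p = 0.000635), which encodes dermatopontin and lay under the limit on control 1 and control 2, and Mfap5 (2.40, adjusted p = 0.0196), which encodes a microfibril protein. Mfap5 was spread in control nerves, at 6.02, 7.27 and 8.77. The collagen genes Col1a1, Col1a2 and Col3a1 did not pass, with changes of 0.12, -0.03 and 0.11. In dKO nerves the mean level of the fibroblast list was 10.94 to 11.00 and its summed linear level 47097 to 49606. In control nerves the mean was 9.48, 9.79 and 10.22 on control 1, control 2 and control 3, and the sum was 39888 to 43597. The fibroblast list and Egfr were both lowest on control 1 and highest on control 3 among the controls. Of 10 perineurial markers, 4 rose and 1 fell (median 0.61), with a mean of 7.46 to 7.59 in dKO nerves. In control nerves that mean was 6.64, 6.90 and 7.08 on control 1, control 2 and control 3, again in the order of Egfr. An order over 3 arrays can be shared by chance. The summed linear level of the perineurial list was 4871 to 5537 in dKO against 4239 to 4554 in control nerves. That sum was 4239, 4554 and 4241 on control 1, control 2 and control 3, which is not the order of Egfr. No marker of either list was under the limit on all arrays, and their part in the Egfr change was not tested. Without dKO 2 or control 2 the number of fibroblast markers called higher was 4, and without dKO 1 or control 2 that of perineurial markers was 2. The perineurial marker called lower did not pass without any array except control 1. Of 7 pericyte markers, 4 rose and 0 fell (median 0.64), with a mean of 7.85 to 8.15 in dKO and 7.38 to 7.45 in control nerves and a summed linear level of 3245 to 4349 against 2100 to 2522. The pericyte mean was 7.38, 7.45 and 7.38 on control 1, control 2 and control 3, which is not the order of Egfr. No pericyte marker was under the limit on all arrays. Their part in the Egfr change was not tested either.

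Of 9 pan-Schwann markers, 4 rose and 1 fell, with a median change of 0.46, a mean of 8.82 to 9.15 in dKO and 8.56 to 8.72 in control nerves, and a summed linear level of 5422 to 6420 against 4793 to 6268. The pan-Schwann gene that fell was S100b, and Sox10 changed by -0.36 (adjusted p = 0.371). All 10 tested myelin genes fell, Drp2 among them, with a list mean of 8.87, 7.15 and 7.57 in dKO against 11.18 to 11.44 in control nerves, and their sum was 9375 to 21393 against 51632 to 56532. On dKO 1 both the myelin list and Erbb3 lay nearest to control. Of 8 macrophage markers 2 rose and 0 fell, and their sum was 3196, 3388 and 7191 on dKO 1, dKO 2 and dKO 3 against 2359 to 2737 in control nerves. Neither passed without dKO 2, control 2 or control 3, and 1 passed without control 1. The marker Cd14 was under the limit on all arrays. On their brightest probe sets, Erbb3, Adgrg6, Lpar1 and Dag1 were all lowest on dKO 3, where the macrophage markers were highest. The part of macrophages in the 4 changes was not tested. The other Adgrg6 probe set was lowest on dKO 2 (8.79, against 8.90 on dKO 3), and so was the dimmest of Lpar1 (7.92 against 7.95). The remaining probe sets of Erbb3, Lpar1 and Dag1 were lowest on dKO 3.

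**Figure D4:**
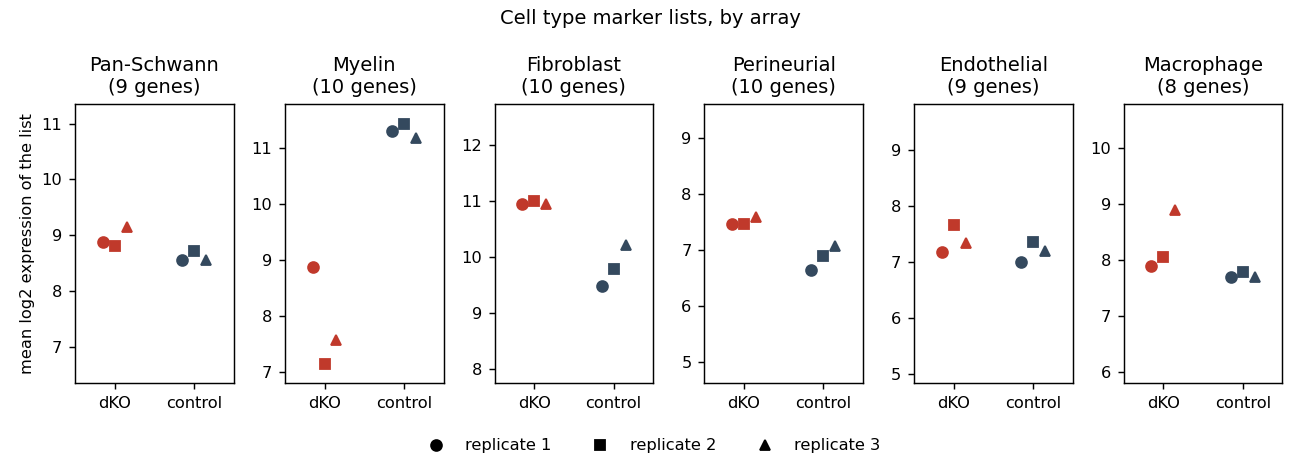
Mean log2 expression of 6 cell type marker lists on each array (points, shaped by replicate number), with dKO left of control and the number of tested genes above each panel. Each panel spans the same number of log2 units. The fibroblast mean is 10.94 to 11.00 in dKO and 9.48 to 10.22 in control nerves, and the macrophage mean is highest on dKO 3.

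The other genes of these pathways were read from 11 lists of 169 genes, of which 143 were tested, 6 were under the limit and 20 were not analysed here. Of the 143, 20 rose and 13 fell, together 23.1%, close to the 22.0% of all tested genes. With each array centred on its median, 16 rose and 16 fell. The median change of all tested genes was 0.01.

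Of 6 tested ErbB ligand genes other than Nrg1, 0 passed in limma, where 2 higher and 1 lower had an unadjusted p under 0.05, and the median change was 0.35. Hbegf, which encodes heparin-binding EGF-like growth factor, a ligand of EGFR and ErbB4, had log2 values of 8.85, 9.05 and 9.30 in dKO and 8.71, 8.05 and 7.33 in control nerves. The groups did not overlap but control values were spread, with a change of 1.04 (SE 0.32, adjusted p = 0.0506), and it passed with both probe sets averaged (0.99, adjusted p = 0.0357) and without control 1 (1.37, adjusted p = 0.0108). Without control 3 its change was 0.68. Tgfa, the gene of another EGFR ligand, changed by 0.59 (adjusted p = 0.119), by 0.04 with its probe sets averaged and by 0.33 without control 3. The neuregulin gene Nrg2 changed by -0.46 (adjusted p = 0.0612), and by -0.15 with its probe sets averaged, and Nrg3, Ereg and Epgn were under the limit on all arrays.

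Of 11 genes for proteases and regulators that process neuregulin 1, 2 rose and 1 fell (median -0.16). Adam19, a metalloprotease of the family that cleaves neuregulins, had log2 values of 10.59, 10.51 and 10.38 in dKO and 9.38, 9.55 and 9.44 in control nerves, a rise of 1.04 (SE 0.14, adjusted p = 0.00135) on both probe sets. Adam17, whose protease limits myelination by cutting neuregulin 1, had 10.18, 9.97 and 10.71 in dKO and 10.94, 11.35 and 11.10 in control nerves. Its change was -0.84 (adjusted p = 0.0248), a call lost without dKO 1, dKO 2, control 2 or control 3 (adjusted p up to 0.0875). Furin, the gene of a proprotein convertase, rose by 1.17 (adjusted p = 0.0435), with 9.51 on dKO 3 against 8.46 and 8.05 on dKO 1 and dKO 2 and 7.30 to 7.81 in control nerves. Its change was 0.76 without dKO 3 (adjusted p = 0.0478), and the call was lost without dKO 1 or any 1 control array (adjusted p up to 0.121). Bace1, the protease that activates neuregulin 1 on axons, changed by -0.16 (adjusted p = 0.511), and by 0.18 with its 4 probe sets averaged. The values of this list are of whole-nerve RNA. They do not tell which cells held it, or how much of each protein was on axons.

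Inside the cell, calls in the lists of the ErbB pathway are read against the 22.0% of all tested genes that were called. Of 20 adaptor and feedback genes, 2 rose and 0 fell (median 0.01), and 4 rose with a limit of 6. With probe sets averaged, Gab2 (0.45, adjusted p = 0.0261) and Stub1 (0.48, adjusted p = 0.0385) also rose, and Rnf41 fell (-0.64, adjusted p = 0.0120). Cblb, which encodes a ubiquitin ligase that acts on activated receptors, had log2 values of 6.95, 7.00 and 7.61 in dKO and 5.68, 6.02 and 5.96 in control nerves, a rise of 1.30 (SE 0.21, adjusted p = 0.00330) on all 3 probe sets. Spry2, a feedback inhibitor, rose by 0.64 (adjusted p = 0.0278), a call lost without any array except control 2 (adjusted p up to 0.0941) and with both probe sets averaged (adjusted p = 0.0510). Of 17 genes from PI3K to Akt and mTOR, 1 rose and 0 fell (median 0.02). That was Eif4ebp1, a translation repressor under mTOR control, with 9.26, 9.68 and 9.87 in dKO and 8.57, 8.42 and 8.74 in control nerves (change 1.03, SE 0.19, adjusted p = 0.00619). Of the genes of this list that did not pass, Akt1 changed by 0.60 (adjusted p = 0.0799), or 0.15 with its probe sets averaged, and Pik3r1 by -0.36 (adjusted p = 0.359). Pik3r1 had 11.24, 11.03 and 10.20 in dKO and 11.10 to 11.27 in control nerves, and its change was -0.05 without dKO 3. Of 11 Ras and MAP kinase genes, 1 rose and 0 fell (median 0.08). That was the scaffold gene Ksr1 (0.63, adjusted p = 0.0354), and the call was lost without any array except dKO 2 (adjusted p up to 0.106) and with its probe sets averaged (adjusted p = 0.0511). The largest other changes of that list were -0.42 for Nf1 (adjusted p = 0.229) and -0.41 for Nras (adjusted p = 0.207). Both were lowest on dKO 3, and without that array the changes were -0.18 for Nf1 and -0.19 for Nras.

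Of 6 genes for reported ADGRG6 ligands, 0 passed in limma, where 0 higher and 4 lower had an unadjusted p under 0.05 (median -0.34). The gene of the laminin gamma 1 chain, Lamc1, changed by -0.51 (adjusted p = 0.120), with 12.51, 12.36 and 11.75 in dKO and 12.68, 12.83 and 12.65 in control nerves. Its value on dKO 3 lay apart from the other dKO arrays, and the change was -0.29 without dKO 3. Prnp, the prion protein gene, changed by -0.37 (adjusted p = 0.116), and by -0.53 with both probe sets averaged (adjusted p = 0.0176). Lamb1, a laminin beta chain gene, changed by -0.33 (adjusted p = 0.114), and by -0.90 with its 4 probe sets averaged (adjusted p = 0.0108).

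Of 23 genes of the cyclic AMP pathway, through which ADGRG6 signals, 4 rose and 3 fell (median 0.06). Gnai1, which encodes an inhibitory G protein subunit, had log2 values of 11.05, 10.87 and 10.54 in dKO and 12.20, 12.26 and 12.07 in control nerves, a fall of 1.36 (SE 0.17, adjusted p = 0.00104) on all 3 probe sets. The adenylyl cyclase gene Adcy8, read by 1 probe set, fell by 1.12 (adjusted p = 0.0140). It had 4.50, 4.36 and 4.16 in dKO nerves, near the limit of 4, against 5.10, 6.03 and 5.24 in control nerves. Adcy7, another cyclase gene, rose by 1.59 (adjusted p = 0.00330) on 1 of 3 probe sets, and by 0.97 with the 3 averaged. Prkar1b, a regulatory subunit gene of protein kinase A, rose by 1.60 (SE 0.25, adjusted p = 0.00314), with 7.70, 7.82 and 8.60 in dKO and 6.62, 6.53 and 6.17 in control nerves. The number that rose was 2 without control 2 or control 3, and 7 with probe sets averaged.

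Among 19 tested relatives of Adgrg6 in the adhesion receptor family, 5 rose and 2 fell, with a median of 0.57. Adgrg1, also called Gpr56, had log2 values of 5.06, 4.68 and 4.41 in dKO nerves and 6.84, 7.05 and 7.16 in control nerves. Its groups lay far apart, and it fell by 2.30 (SE 0.19) to 20.3% of the control level (adjusted p = 0.000232). Both of its probe sets fell. Adgrb2 and Adgrb3, genes of brain-expressed family members, both rose, Adgrb2 by 1.55 (adjusted p = 0.00152) and Adgrb3 by 1.13 (adjusted p = 0.00104). Adgrd1 rose by 1.56 (adjusted p = 0.0165), with control 1 under the limit, and the call was lost without dKO 1 or dKO 2 (adjusted p = 0.0521 and 0.0570). Without dKO 1, 3 of these genes were called higher, and without dKO 2, dKO 3, control 1 or control 2, 1 was called lower.

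Of 11 tested genes for other receptors of lysophosphatidic acid, receptors of sphingosine 1-phosphate and enzymes that remove these lipids, 4 rose and 2 fell (median 0.06). Lpar4, the gene of another lysophosphatidic acid receptor, had log2 values of 9.10, 8.96 and 9.04 in dKO and 10.13, 10.07 and 10.31 in control nerves. It fell by 1.14 (SE 0.14, adjusted p = 0.000952) on all 3 probe sets. Plpp1, which encodes a lipid phosphate phosphatase, fell by 1.11 (SE 0.15, adjusted p = 0.00153). Lpar6, a further receptor gene, rose by 0.62 (adjusted p = 0.0290), a call lost without dKO 1, dKO 3, control 1 or control 2 (adjusted p up to 0.0881), Lpar2 changed by 0.47 (adjusted p = 0.128), and Lpar3 was under the limit on all arrays. The sphingosine 1-phosphate receptor genes S1pr1 and S1pr3 both rose, S1pr3 by 0.80 (adjusted p = 0.0109) and S1pr1 by 1.89 (adjusted p = 0.00472), with S1pr1 at 7.39, 8.18 and 7.36 in dKO against 5.12, 5.88 and 6.26 in control nerves. S1pr1 is a known marker of endothelium. Of 9 endothelial markers 0 rose and 1, Vwf, fell in limma (median 0.35), where 3 higher and 1 lower had an unadjusted p under 0.05. The list mean was 7.17 to 7.66 in dKO and 6.99 to 7.36 in control nerves. With probe sets averaged, or without dKO 1, 1 endothelial marker was called higher, and with a replicate block 2 were. The part of endothelial cells in the S1pr1 change was not tested. Without dKO 3, control 1 or control 2, 2 genes of the lipid receptor list were called higher, and with probe sets averaged 4 were called lower.

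Of 11 tested genes of the dystroglycan complex, 0 rose and 3 fell in limma, where 2 higher and 6 lower had an unadjusted p under 0.05 (median -0.39). All 3 encode large cytoplasmic partners of dystroglycan. Drp2, the partner in the outer wrap of myelinating Schwann cells, had log2 values of 8.58, 7.01 and 6.54 in dKO and 11.07, 11.39 and 10.96 in control nerves, a change of -3.76 (SE 0.46, adjusted p = 0.000993). Dmd, the dystrophin gene, had 11.61, 10.96 and 9.97 in dKO and 12.64, 12.30 and 12.52 in control nerves (change -1.64, SE 0.36, adjusted p = 0.0141). Utrn, the utrophin gene, had 12.70, 11.95 and 11.61 in dKO and 13.73, 13.69 and 13.49 in control nerves (change -1.55, SE 0.26, adjusted p = 0.00436). In all 3, as in Dag1 and Erbb3, dKO 1 was the highest and dKO 3 the lowest of the dKO arrays, and no call was lost with any 1 array left out. The sarcoglycan genes Sgca, Sgcb, Sgcd and Sgce did not pass, with changes of -0.43 to 0.11. With its 3 probe sets averaged, Sgcb changed by -0.50 (adjusted p = 0.0117). With probe sets averaged, 5 genes of the list were called lower. With array weights 6 were called lower and 2 higher, with a limit of 6 there were 2 higher, and without dKO 3 there was 1 higher.

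Among 8 tested genes for enzymes that glycosylate dystroglycan, 1 rose and 2 fell (median -0.12). Pomk, a kinase gene for the sugar chain that binds laminin, had log2 values of 7.20, 7.24 and 6.55 in dKO and 8.65, 8.85 and 8.73 in control nerves, a fall of 1.75 (SE 0.20, adjusted p = 0.000814) that left 29.7% of the control level. Pomgnt1, a glycosyltransferase gene, fell by 0.64 (adjusted p = 0.0191), a call lost without dKO 1, dKO 2 or control 2 (adjusted p up to 0.0750). Rxylt1, the gene of another transferase of this chain, rose by 0.48 (adjusted p = 0.0496), and that call was lost with any 1 of the 6 arrays left out (adjusted p up to 0.136) and with arrays centred on their median (adjusted p = 0.0871).

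**Figure D5:**
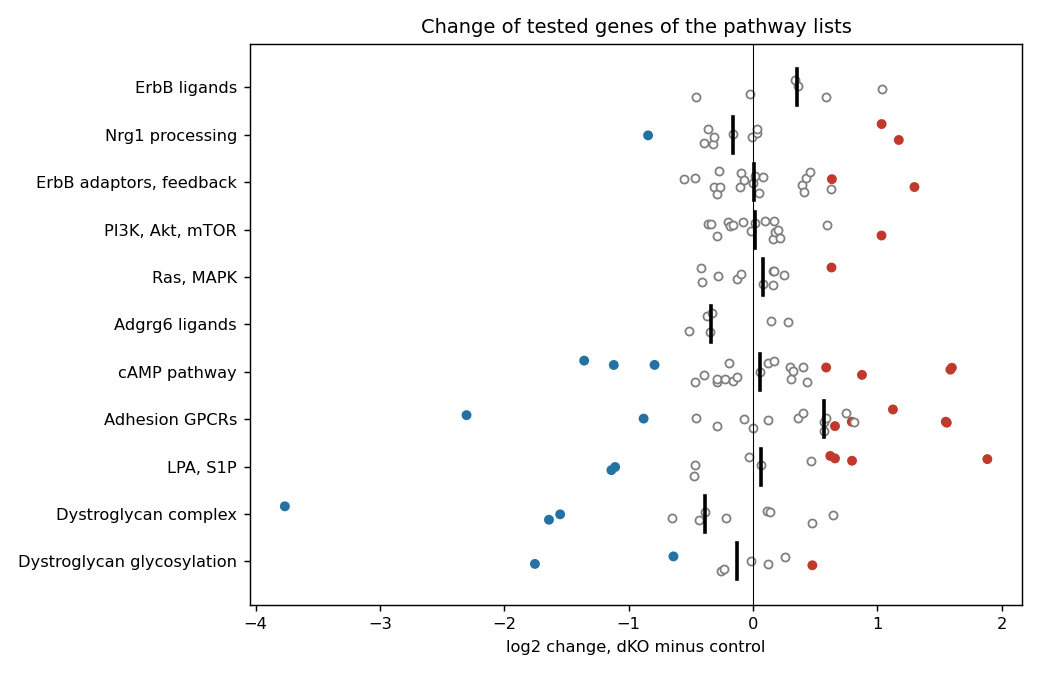
Log2 change (dKO minus control) of each tested gene of the 11 pathway lists (points; red for called higher, blue for called lower, open for not past the threshold), with the list median as a bar and vertical scatter added for legibility. The dystroglycan complex holds the largest fall, that of Drp2 at -3.76, and the medians of the adaptor, PI3K and Ras lists are 0.01, 0.02 and 0.08.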

How the data were processed

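RNA of 6 nerve samples was read on Affymetrix Mouse Genome 430 2.0 arrays, and groups were taken from the sample titles. The deposited log2 expression values, 1 a probe set, ran from 1.66 to 14.94. Their scale was read from the values. The submitters' processing notes list GCOS 1.2 and GCRMA, with no settings. The median was 5.77 on every array and sorted values differed by at most 0.01, so a change common to all genes could not be seen.

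Of 45101 probe sets, 34958 had 1 gene symbol in the platform annotation, 932 had several and 9211 had none. Symbols were brought up to date by gene ID with RefSeq (GRCm38.p6), and 204 kept their given name. Of 18194 genes, 14550 passed the limit of 4 on 3 of 6 arrays and 3644 did not. The comparison was fitted with limma 3.58.1 (lmFit, eBayes) in R 4.3.3, without covariates and two-sided, and its p-values were adjusted by the Benjamini-Hochberg method across the genes that passed. The same model over 33975 probe sets gave the probe set values. The code was tested on simulated data. Pairs of genes were compared by an exact permutation test.

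The genes and lists were chosen with earlier results of these data known. Named were the 8 genes, up to 4 called genes of each pathway list with the largest change (where fewer than 2 were called, up to 2 others), and the 3 genes nearest in profile to each called gene. Nrg2, Bace1, Lamb1, Lpar2, Lpar6, the sarcoglycan genes, single cell type markers and genes under the limit were named after their values were seen. So were Gab2, Stub1 and Rnf41. Promoter windows of 6 of the 8 genes were matched by symbol, and none was available for Erbb3 or Nrg1. Alternatives were the limit, averaged probe sets, array centring, an intensity trend, array weights, a replicate block and each array left out. The labels do not say that samples came from separate animals, so the p-values cover the spread of these samples, which may be technical.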

Additional observations from a re-analysis of the deposited data

How the results depend on the processing

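With 7 alternatives to the main fit that keep all 6 arrays, 4 of the 8 genes were called each time, 1 higher and 3 lower, and the changes of the 6 tested genes kept their sign. The change ran from -1.58 to -1.16 for Erbb3, from 0.49 (probe sets averaged) to 1.18 for Egfr, from -1.01 to -0.70 for Lpar1 and from -0.73 to -0.56 for Dag1. With no low-value limit, Nrg1 changed by 0.06 (adjusted p = 0.878) and Erbb4 by -0.39 (adjusted p = 0.200).

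With each array left out in turn, 2 to 4 of the genes were called, 1 higher throughout and 1 to 3 lower, and 2 remained without control 1 or control 2. The change ranged from -1.62 to -1.11 for Erbb3 (adjusted p up to 0.0301), from 0.99 to 1.39 for Egfr (up to 0.0240), from -1.12 to -0.60 for Lpar1 (up to 0.0919) and from -0.75 to -0.56 for Dag1 (up to 0.0703). It ranged from -0.31 to -0.05 for Erbb2 and from -0.79 to -0.29 for Adgrg6, not past the threshold in any. Of the genes' probe sets, 4 to 10 were called, 1 or 2 higher and 3 to 8 lower, with 4 without control 2. Of the pathway list genes, 22 to 30 were called, 12 to 17 higher and 9 to 13 lower, where 12 came without dKO 1. Over all genes, 2178 to 2916 were called, 1246 to 1585 higher and 891 to 1331 lower, where 891 came without control 2. Each of these fits had fewer arrays than the main fit, and the cause of these differences was not tested.

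Deviations of same-numbered arrays from their group means correlated at 0.04, -0.12 and -0.23, and those of differently numbered arrays at -0.16 to 0.22. No pairing by replicate number was thus seen, but with 3 arrays per group these correlations cannot exclude it. With a replicate block 2557 genes were called against 3198, 5 of the genes' probe sets were called lower against 8, and all 4 called genes stayed called (adjusted p = 0.0491 for Lpar1 and 0.0445 for Dag1). With probe sets averaged, 21 pathway list genes were called lower against 13, the cause of which was not tested. Values under the limit of 4 cannot show a difference in Nrg1 or Erbb4.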
